A study of Mus musculus with 16 samples.

Results

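Saa3, Lcn2, Hp, Slpi, S100a8 and S100a9 are 6 acute-phase and alarmin genes of the 55487 genes counted in mouse bone marrow-derived macrophages (BMDMs). They were chosen by their change with IKK-16, because Saa3 and Lcn2 were among the largest falls when the IKK inhibitor IKK-16 was added. The genes were thus selected on the values of CM + Rux + IKK-16 and of CM + Rux, and the change between these groups is given as a description without a test. Other tests that use the CM + Rux samples are not independent of this choice. BMDMs were grown from bone marrow of WT Balb/c mice of 8 weeks of age, and no genotype differed between groups. CM is the medium conditioned by 4T1 cells, a mouse mammary tumor cell line, and holds what these cells release. Ruxolitinib (Rux) is an inhibitor of JAK1 and JAK2. IKK-16 blocks the IKK kinases, which lie upstream of NF-κB. The 16 samples fell into 6 groups. DMEM (n = 2) was medium without tumor factors, and DMEM + Rux (n = 3) was the same with ruxolitinib, at a dose that the sources used here do not give. CM (n = 3) had tumor medium alone, and CM + Rux (n = 3) had 0.5 μM ruxolitinib with a label of 4 h. CM + Rux + IKK-16 (n = 3) had the same dose of ruxolitinib with IKK-16 at 0.8 μM. CM + Rux 2 h (n = 2, replicates 2 and 3) had a label of 2 h, and no CM sample without ruxolitinib at 2 h was analysed here. The sources used here do not say whether the replicates came from separate mice, so the p-values measure the spread between these samples.

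The acute-phase response is the change in secreted proteins that follows infection or tissue injury. It is driven by cytokines such as IL-6 and IL-1 through STAT3, NF-κB and C/EBP factors, and the liver is its best known source. Macrophages make a part of these proteins themselves. Saa3 encodes a serum amyloid A protein that in mice is made largely outside the liver. Lcn2 (lipocalin 2) binds bacterial siderophores and so withholds iron. Hp (haptoglobin) binds free hemoglobin, and Slpi is an inhibitor of neutrophil proteases. S100a8 and S100a9 encode the subunits of calprotectin, a calcium-binding alarmin that is most abundant in neutrophils and monocytes.

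The promoters are shown because the inhibitors used here act on pathways that end in transcription factors. RefSeq sequences of the mouse build GRCm38.p6 were matched by symbol for 5 of the 6 genes, and Hp is named only. Each is the 250 bases before the start that RefSeq gives the gene, 5′ to 3′ on the strand of the gene, with matches to a searched motif in capitals.
Saa3: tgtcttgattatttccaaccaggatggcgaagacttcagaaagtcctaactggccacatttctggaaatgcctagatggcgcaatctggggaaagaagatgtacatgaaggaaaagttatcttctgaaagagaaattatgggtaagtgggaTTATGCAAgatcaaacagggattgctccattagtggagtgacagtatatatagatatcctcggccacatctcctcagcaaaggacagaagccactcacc
Lcn2: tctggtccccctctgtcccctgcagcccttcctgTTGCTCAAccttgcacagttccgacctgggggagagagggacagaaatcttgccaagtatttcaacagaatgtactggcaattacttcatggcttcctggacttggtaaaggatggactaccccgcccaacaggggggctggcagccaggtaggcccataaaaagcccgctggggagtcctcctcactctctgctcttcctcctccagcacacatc
Slpi: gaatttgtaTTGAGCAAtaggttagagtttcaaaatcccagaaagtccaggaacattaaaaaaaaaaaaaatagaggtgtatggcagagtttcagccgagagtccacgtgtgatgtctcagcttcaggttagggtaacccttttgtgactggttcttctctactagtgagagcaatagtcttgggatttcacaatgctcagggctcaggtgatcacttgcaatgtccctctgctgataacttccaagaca
S100a8: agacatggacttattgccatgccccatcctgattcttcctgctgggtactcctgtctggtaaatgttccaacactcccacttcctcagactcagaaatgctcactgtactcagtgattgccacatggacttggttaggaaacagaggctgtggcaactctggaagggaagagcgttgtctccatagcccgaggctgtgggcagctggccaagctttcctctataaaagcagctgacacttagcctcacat
S100a9: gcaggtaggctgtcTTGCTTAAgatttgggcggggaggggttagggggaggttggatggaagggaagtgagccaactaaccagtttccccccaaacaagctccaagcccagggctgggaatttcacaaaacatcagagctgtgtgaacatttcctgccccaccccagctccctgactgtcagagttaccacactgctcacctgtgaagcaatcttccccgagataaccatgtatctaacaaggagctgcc
The motifs were searched on both strands as GGGA, any 4 bases and CC for NF-κB, TTGCNNAA for C/EBP, TTCNNNGAA for STAT factors and TGANTCA for AP-1. The capitals mark the C/EBP letters, which occurred once each in Saa3, Lcn2, Slpi and S100a9. They lay at bases -99 to -92 in Saa3, -216 to -209 in Lcn2, -241 to -234 in Slpi and -236 to -229 in S100a9, counted from the RefSeq start. Of 32851 promoters of this length, 9.56% held this motif. The letters of the NF-κB, STAT and AP-1 motifs, held by 17.6%, 7.02% and 6.75% of these promoters, did not occur in the 5 windows. A match is a description of letters, and other spellings of these sites were not searched.

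The genes lie on 4 chromosomes of GRCm38, as the deposited table gives them. Saa3 (ENSMUSG00000040026) spans chr7:46711998-46715700 on the minus strand. Lcn2 (ENSMUSG00000026822) lies at chr2:32384633-32388252 and Slpi (ENSMUSG00000017002) at chr2:164354070-164389095, both on the minus strand. Hp (ENSMUSG00000031722) lies at chr8:109575128-109579172 on the minus strand. S100a8 (ENSMUSG00000056054) at chr3:90668978-90670035 on the plus strand and S100a9 (ENSMUSG00000056071) at chr3:90692632-90695721 on the minus strand are near each other. The deposited span covers all annotated transcripts, and it begins upstream of the RefSeq start by 24 bases in Saa3, 513 in Lcn2, 93 in S100a8 and 32588 in Slpi, so these windows lie wholly or partly within the span. For S100a9 both starts are the same base. All are protein-coding genes, and fragments were counted over their exons.

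The fragments counted on genes numbered 18449388 to 46215853 per sample. The 10 macrophage markers examined all reached 1 CPM, a count relative to the scaled total of its sample, and their summed level was 34535 to 45934 CPM per sample. None of 5 hepatocyte, 6 T and NK cell or 11 epithelial markers reached 1 CPM in a sample, while 1 of 5 B cell, 1 of 5 dendritic cell and 4 of 5 fibroblast markers did. Of 14 neutrophil markers, 12 stayed below 1 CPM, with Ly6g and Retnlg at 0 throughout.

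The 6 genes differed widely in abundance. CPM values use totals scaled by RLE (relative log expression), and levels are compared between genes only as CPM per kilobase of exon. In CM, the level per kilobase was 318 ± 116 (SD, n = 3) for Saa3, which was rank 127 of the 12372 genes tested. It was 36.6 ± 4.69 for Slpi, 10.4 ± 1.70 for Hp, 5.24 ± 1.02 for Lcn2, 2.73 ± 0.713 for S100a8 and 0.114 ± 0.197 for S100a9. In DMEM the order was different, with Slpi at 8.05 ± 1.64 (SD, n = 2) per kilobase and Saa3 at 3.15 ± 0.816. Testing required more than 1 CPM in 2 or more samples, which 5 of the 6 genes passed. Saa3, Hp and Slpi were above 1 CPM in all 16 samples. Lcn2 passed in 9 samples and S100a8 in 7, none of them without CM. Their place among the tested genes therefore rests on the groups in which they were high.

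**Figure D1:**
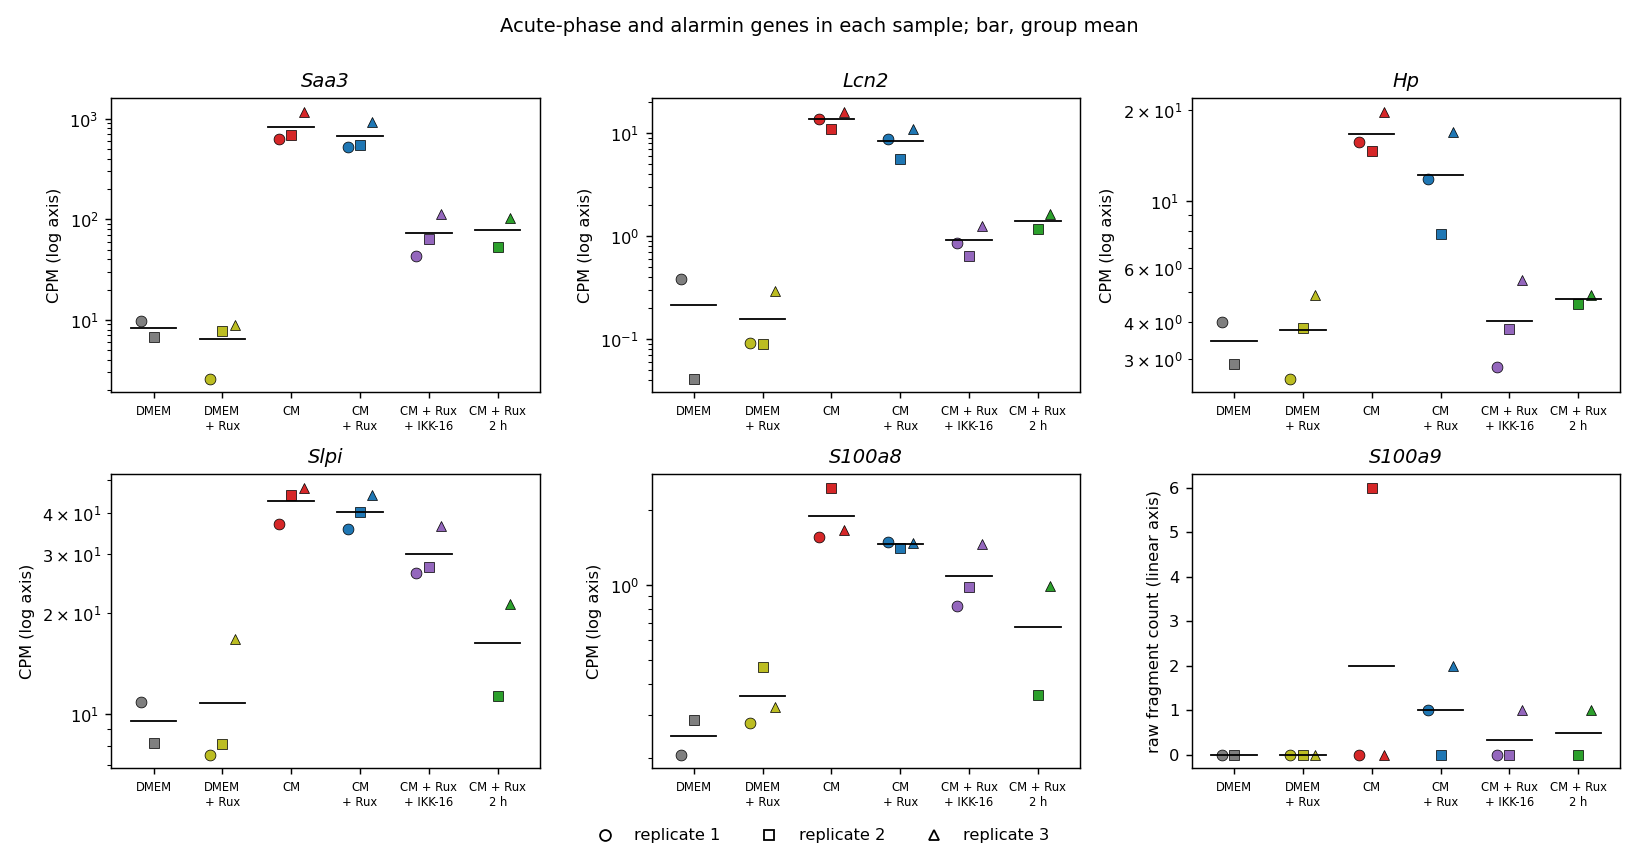
Level of each gene in each sample, with the 6 groups on the horizontal axis and CPM on a log axis, except for S100a9, which is shown as raw fragment counts on a linear axis; symbols mark replicate numbers and bars the group means. Saa3 and Lcn2 lie at 3 separate heights, with CM and CM + Rux highest and both groups without CM lowest.

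Tumor medium raised Saa3, Hp and Slpi, the 3 genes above the filter in every sample. Saa3 rose about 100-fold, Hp 4.81-fold and Slpi 4.53-fold. Lcn2 was about 57.2-fold and S100a8 7.84-fold higher, and these are given without a test because both passed the filter only through samples with CM. This comparison, CM against DMEM, used none of the samples by which the genes were chosen, and 20.9% of all tested genes were called higher in it. A gene was called when the edgeR quasi-likelihood test gave an adjusted p-value (Benjamini-Hochberg) below 0.05 and the log2 fold change was past 0.5 in size.

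Saa3 was at 9.71 and 6.70 CPM in DMEM and at 625, 684 and 1178 CPM in CM. Its log2 fold change was 6.65 ± 0.64 (SE, adjusted p = 1.1e-06, edgeR). The groups were far apart, and CM replicate 3 stood above the other CM samples. For Lcn2, the values were 0.384 and 0.0409 CPM in DMEM and 13.95, 10.95 and 16.32 CPM in CM, a log2 fold change of 5.84 ± 0.53 (SE). The DMEM values rest on 13 fragments and 1 fragment, so the size of this difference is uncertain. Every CM sample had at least 251 fragments of Lcn2.

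Hp was at 3.99 and 2.90 CPM in DMEM and 15.7, 14.7 and 19.8 CPM in CM (log2 fold change 2.27 ± 0.35, SE, adjusted p = 7.9e-05, edgeR). Slpi was at 10.9 and 8.14 CPM in DMEM and 37.0, 45.1 and 47.5 CPM in CM (2.18 ± 0.34, SE, adjusted p = 7.1e-05, edgeR). Neither gene overlapped between the groups, and Slpi already had the highest level per kilobase of the 6 genes in DMEM. S100a8 was at 0.207 and 0.286 CPM in DMEM and 1.56, 2.46 and 1.67 CPM in CM (2.97 ± 0.45, SE). The groups did not overlap, but the difference starts from 7 fragments in each DMEM sample. S100a9, its partner in calprotectin, had 11 fragments in all 16 samples together. Of these, 6 were in CM replicate 2, and all 5 samples without CM had 0, which allows up to 3 fragments per sample. S100a9 was not tested, and a change in it was not detectable at this depth.

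Markers of other cells differed with CM too. The summed level of the 14 neutrophil markers, of which only Mmp8 and Csf3r reached 1 CPM, was 231 to 271 CPM in CM against 133 to 176 CPM in DMEM. The 12 of them that stayed below 1 CPM summed to 0.500 to 1.01 CPM in CM and 0.368 to 0.472 CPM in DMEM. The level of Lcn2 was 10.95 CPM or more in every CM sample. The 11 epithelial markers summed to 1.18 to 1.50 CPM in CM and 0.0818 to 0.118 CPM in DMEM, and 3 of them were at 0 in all samples. The 5 dendritic cell markers summed to 2.08 to 2.73 CPM in CM and 1.31 to 1.77 CPM in DMEM, and the 5 B cell markers to 0.122 to 0.267 CPM and 1.14 to 1.21 CPM. Their part in the differences of the genes was not tested. In bulk samples, fewer cells of a type and less RNA per cell cannot be told apart.

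With ruxolitinib in tumor medium, the group means of the 5 genes were between 61.8% (Lcn2) and 93.2% (Slpi) of those in CM. In CM + Rux against CM, 0 of 5 genes were called by edgeR, 1 had an unadjusted p-value under 0.05, and DESeq2 also called 0. Of all 12372 tested genes, 898 higher and 994 lower had an unadjusted p-value under 0.05 by edgeR, and 3.33% were called in this comparison. It shares the CM + Rux samples with the choice of the genes, which favours genes high in CM + Rux, so these tests are not independent of that choice. All 5 log2 fold changes were below 0.

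Lcn2 differed most, at 13.95, 10.95 and 16.32 CPM in CM and 8.81, 5.64 and 11.03 CPM in CM + Rux. The groups overlapped only slightly, and the log2 fold change was -0.70 (95% confidence interval -1.35 to -0.055, adjusted p = 0.27, edgeR). In a model blocked by replicate number it was -0.73 with an adjusted p-value of 0.0062 by edgeR, so Lcn2 was called lower in that fit. This call uses CM + Rux samples that chose Lcn2 and is not independent of that choice. Samples of the same number deviated together in these groups, and within numbers Lcn2 was at 63.2%, 51.5% and 67.6% of its CM level. Hp was at 11.9, 7.77 and 16.9 CPM in CM + Rux, and its log2 fold change was -0.47 (interval -1.07 to 0.13, adjusted p = 0.49, edgeR).

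Saa3 was at 526, 554 and 934 CPM in CM + Rux, which overlapped with CM, and its log2 fold change was -0.31 (interval -1.19 to 0.58, adjusted p = 0.85, edgeR). Within replicate numbers the values were close together, at 84.1%, 80.9% and 79.3% of CM. Replicate 3 was the highest in both groups. Slpi stayed at 35.7, 40.2 and 45.0 CPM (-0.11, interval -0.68 to 0.47, adjusted p = 0.94, edgeR). S100a8 was at 1.48, 1.40 and 1.47 CPM, just under the lowest CM sample (-0.41, interval -1.06 to 0.25, adjusted p = 0.64, edgeR). The intervals do not exclude falls of more than 0.5 on the log2 scale for any of the 5 genes. The neutrophil markers summed to 155 to 177 CPM in CM + Rux and the epithelial markers to 0.356 to 1.16 CPM, both below every CM sample. Most of the neutrophil sum was Csf3r, and the 12 markers below 1 CPM (0.508 to 1.37 CPM) overlapped with CM. The B cell markers, at 0.356 to 0.629 CPM, were above every CM sample. Their part in these values was not tested.

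Without tumor medium, ruxolitinib gave no call either. In DMEM + Rux, Saa3 was at 2.58, 7.78 and 8.80 CPM and Hp at 2.58, 3.81 and 4.88 CPM. Slpi was at 7.52, 8.12 and 16.7 CPM, and S100a8 at 0.277, 0.468 and 0.323 CPM. Every gene overlapped with DMEM. By edgeR, 0 of 5 genes were called against DMEM and 0 had an unadjusted p-value under 0.05, DESeq2 called 0, and 0.97% of all tested genes were called. Lcn2 had only 2, 4 and 9 fragments in these samples, and the interval of its log2 fold change was -2.34 to 1.16. The effect of ruxolitinib in CM minus that in DMEM was called for none of the 5 genes (0.412% of all genes; 0 of 5 at an unadjusted p-value under 0.05 by edgeR, and 0 called by DESeq2). For S100a8 this difference was -1.01 with an interval of -2.30 to 0.27, the widest departure from 0. The difference uses CM + Rux samples, which chose the genes, so its tests are not independent of that choice.

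The 5 genes were also higher with tumor medium in the presence of ruxolitinib. Against DMEM + Rux, the log2 fold changes in CM + Rux were 6.67 for Saa3, 5.73 for Lcn2, 1.96 for S100a8, 1.90 for Slpi and 1.66 for Hp. None of the 5 genes overlapped between these groups. The share of all tested genes without overlap is not given here, so this is not read as particular to them. Of the 12372 tested genes, 2761 were called higher and 3096 lower by edgeR in this comparison. The CM + Rux samples are among those that chose the genes, so the values of the 5 genes are a description without a test.

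**Figure D2:**
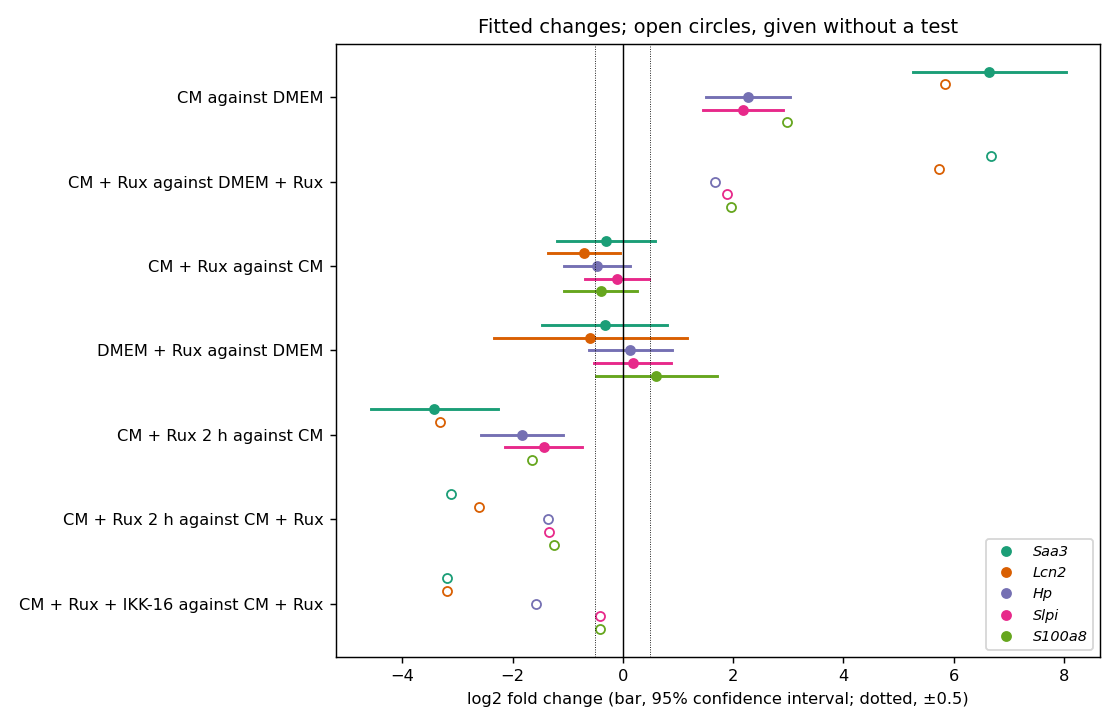
Log2 fold changes of the 5 tested genes in 7 comparisons, with bars for the 95% confidence interval; open circles without bars are values given without a test, because the samples or the filter that chose the genes favour them. Saa3 and Lcn2 lie apart from the other 3 genes in every comparison with a change of tumor medium, time or IKK-16.

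Addition of IKK-16 to CM + Rux brought Saa3 to 10.97% and Lcn2 to 10.76% of their CM + Rux level. Hp stood at 33.1%, and Slpi and S100a8 stood at 74.6% and 74.7%. These are the values that chose the genes, and no test is given for them. Genes were ordered by log2 fold change where edgeR adjusted p-values were under 0.05, groups did not overlap and their mean reached 1 CPM. In this order, Lcn2 was the fourth and Saa3 the fifth largest fall (both -3.19). Just before them was Il23a (-3.20), a cytokine subunit of IL-23, and just after them Il12b (-3.11), the subunit that IL-12 and IL-23 share. Hp was in place 67 with -1.58.

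Saa3 was at 43.5, 63.6 and 114 CPM with IKK-16, and the CM + Rux samples were all above 500 CPM. Within replicate numbers it was 12.1-fold, 8.71-fold and 8.21-fold lower than in CM + Rux. Lcn2 was at 0.850, 0.642 and 1.25 CPM, which was 10.4-fold, 8.79-fold and 8.82-fold lower. In both genes the 3 numbers moved by nearly the same factor.

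Hp was at 2.83, 3.79 and 5.47 CPM with IKK-16, or 4.20-fold, 2.05-fold and 3.09-fold lower within numbers. Slpi was at 26.3, 27.4 and 36.4 CPM, which overlapped with CM + Rux and was 1.35-fold, 1.47-fold and 1.23-fold lower. S100a8 was at 0.824, 0.978 and 1.46 CPM and was 1.80-fold, 1.44-fold and 1.01-fold lower. The genes thus formed a graded series, from Saa3 and Lcn2 over Hp to Slpi and S100a8. The neutrophil markers summed to 122 to 135 CPM with IKK-16. Most of this sum was Csf3r, and the 12 markers below 1 CPM (0.206 to 1.11 CPM) overlapped with CM + Rux. The dendritic cell markers summed to 1.38 to 1.75 CPM, against 2.15 to 2.19 CPM in CM + Rux, while the epithelial markers (0.336 to 0.850 CPM) overlapped with CM + Rux. Their part in these values was not tested.

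**Figure D3:**
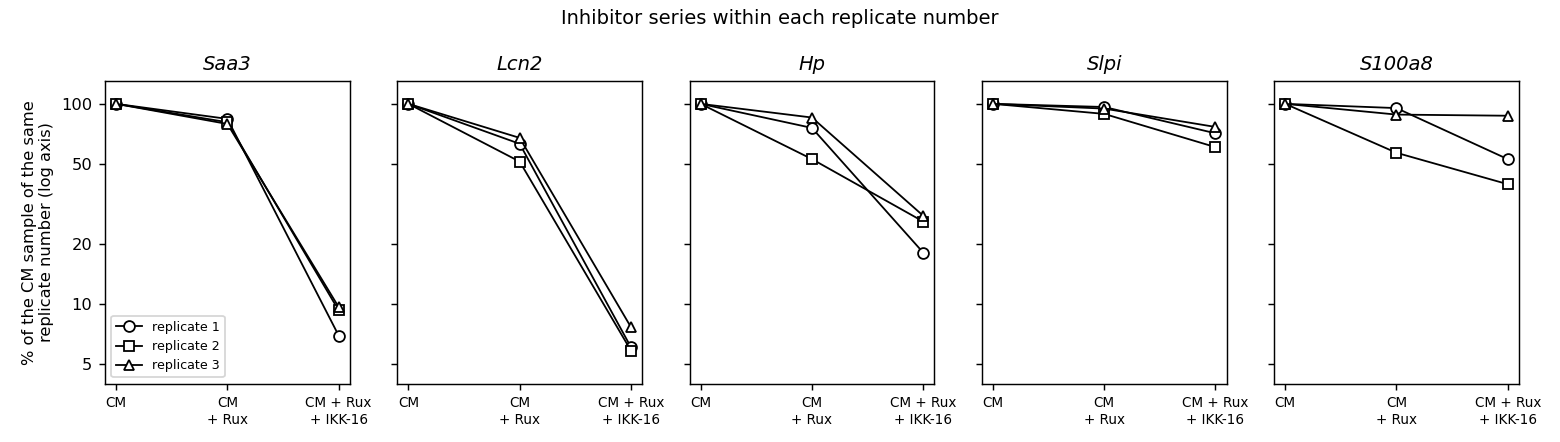
Level of each gene in CM, CM + Rux and CM + Rux + IKK-16 as a percentage of the CM sample of the same replicate number, on a log axis, with a line for each of the 3 numbers. With both inhibitors Saa3 lies between 6.96% and 9.66% and Lcn2 between 5.86% and 7.67%, while Slpi lies between 60.8% and 76.7%.

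What remained of the response to tumor medium under both inhibitors also varied between the genes. Saa3 with IKK-16 was still 8.97-fold above DMEM and Lcn2 4.31-fold above it, with no overlap. The rise over DMEM + Rux that remained was 10.1% of that in CM + Rux for Saa3, 9.08% for Lcn2 and 3.21% for Hp. Hp overlapped with DMEM and stood at 1.17-fold of it. Slpi and S100a8 kept 65.4% and 66.5% of their rise and were 3.16-fold and 4.41-fold above DMEM, without overlap. These ratios use the samples that chose the genes and are descriptions.

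The CM + Rux samples labelled 2 h had lower levels of all 5 genes than CM. The comparison with CM used no sample that chose the genes, though it shares the CM samples with CM against DMEM, and ruxolitinib and the labelled time cannot be told apart in it. Saa3, Hp and Slpi were called lower by edgeR, where 13.3% of all tested genes were, and Lcn2 and S100a8 are given without a test as above. Saa3 was at 52.5 and 103 CPM (log2 fold change -3.42 ± 0.54, SE, adjusted p = 1.9e-04, edgeR). Lcn2 was at 1.19 and 1.63 CPM (log2 fold change -3.32 ± 0.42, SE). Both lay far below every CM sample.

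The other genes differed less. Hp was at 4.58 and 4.90 CPM (-1.82, adjusted p = 8.3e-04, edgeR). Slpi was at 11.3 and 21.2 CPM (-1.44, adjusted p = 0.0027, edgeR) and S100a8 at 0.359 and 0.992 CPM (-1.65). In both, replicate 2 was much lower than replicate 3. Without replicate 2, the 2 h group is 1 sample that is assumed to vary like the other groups, and Slpi was then no longer called (adjusted p = 0.050, edgeR), while Saa3 and Hp were. The dendritic cell markers, of which only Zbtb46 reached 1 CPM, summed to 8.78 to 12.8 CPM in the 2 h samples, above those of every other group. The neutrophil markers summed to 153 to 158 CPM and the epithelial markers to 0.350 to 0.607 CPM, below CM. Most of the neutrophil sum was Csf3r, and the 12 markers below 1 CPM (0.331 to 0.759 CPM) overlapped with CM. The macrophage markers summed to 42907 to 45934 CPM, mostly Lyz2, above the 34535 to 40174 CPM in CM. Csf1r and Cd68 were also above every CM sample, Itgam and Fcgr1 were below every CM sample, and the others overlapped. Their part in these values was not tested.

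Against CM + Rux labelled 4 h, whose samples chose the genes, the values are a description without a test. The log2 fold changes were -3.12 for Saa3, -2.62 for Lcn2, -1.35 for Hp, -1.33 for Slpi and -1.25 for S100a8, and no gene overlapped between the groups. Of the 12372 tested genes, 1556 were called higher and 1327 lower by edgeR in this comparison. Saa3 and Lcn2 in the 2 h samples were 12.2-fold and 8.96-fold above DMEM + Rux and did not overlap with it. Hp, Slpi and S100a8 overlapped with DMEM + Rux, at 1.26-fold, 1.51-fold and 1.90-fold.

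The order of the 6 groups therefore differed between the genes. For Saa3, the means were 829 ± 303 CPM in CM, 671 ± 228 in CM + Rux, 77.8 ± 35.8 in CM + Rux 2 h, 73.6 ± 36.2 in CM + Rux + IKK-16, 8.21 ± 2.13 in DMEM and 6.39 ± 3.33 in DMEM + Rux (SD; n = 2 in DMEM and 2 h, 3 in the others). Neighbours within each of the 3 pairs overlapped, and the pairs did not. Lcn2 had the same 3 pairs. Hp had an upper pair of CM and CM + Rux, and its other 4 groups lay between 2.58 and 5.47 CPM, where only the 2 h and DMEM samples did not overlap with each other. Slpi and S100a8 had the means of CM, CM + Rux and CM + Rux + IKK-16 in this order at the top, with overlap between the latter 2 groups. CM and CM + Rux overlapped for Slpi but not for S100a8. For Slpi, the 2 h samples lay below these groups. Replicate 3 was the highest of its group in all 4 groups of 3 samples for Saa3, Lcn2, Hp and Slpi.

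Genes with the profiles most like these were found by the root mean square difference of group means of log2(CPM + 1), each centred on its own mean, over the 6 groups and 11558 genes. Nearest to Saa3 were Nos2 (0.53), Mmp13 (0.59) and Hdc (0.60), which encode inducible nitric oxide synthase, a collagenase and histidine decarboxylase. Nearest to Lcn2 were Fcgr2b (0.36), Il2ra (0.38) and Epha4 (0.38). Hp was nearest to Ext1 (0.12), Zfp558 (0.21) and F3 (0.21). Slpi was nearest to Tpi1 (0.058), Ldha (0.078) and Ero1l (0.10), of which Tpi1 and Ldha encode glycolytic enzymes. S100a8 was nearest to Tmem198b (0.046), Pgam1-ps2 (0.050) and Dnajc21 (0.051), where small differences reflect levels near 1 CPM and Pgam1-ps2 may share reads with its parent gene. With 0.25 in place of 1 as the added value, 8 of these 15 pairs were again among the nearest. All those of Slpi were kept and none of those of S100a8. Lcn2 kept only Il2ra, Saa3 lost Nos2 and Hp lost F3. With CM against DMEM, Tmem198b, Pgam1-ps2 and Dnajc21 changed by 1.14, 1.72 and 1.14 (log2), and S100a8 by 2.97.

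Of 30 other acute-phase genes, only 6 were expressed highly enough to be tested, and all 6 rose with CM. Of all tested genes, 45% were called in this comparison, 20.9% higher and 24.1% lower. Listed genes near 0 without CM were tested only through the samples with CM, so the counts of rises are descriptions. Il1rn, the IL-1 receptor antagonist, was at 58.9 ± 2.86 CPM in DMEM (SD, n = 2) and 5077 ± 1289 CPM in CM (SD, n = 3, log2 fold change 6.43, adjusted p = 3.5e-09, edgeR). The CM mean of Steap4, a metalloreductase, was 21.7-fold above a floor of 3 fragments per DMEM sample. Over the list the log2 fold changes had a median of 3.33, against -0.0050 over all genes. The other serum amyloid genes were scarce. Saa1, singled out after its values were seen, had 6, 12 and 23 fragments in CM, 3, 4 and 1 in CM + Rux, 0, 1 and 1 with IKK-16 and 0 in every other sample. Saa2 and Saa4 had at most 3 fragments in a sample.

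Of the 6 tested acute-phase genes, 4 fell in CM + Rux against CM: Steap4 (log2 fold change -4.45), the metallothioneins Mt1 (-1.73) and Mt2 (-1.31), and Il1rn (-1.13). Steap4 passed the filter only through CM samples, so its fall is given without a test. The adjusted p-values of Mt1, Mt2 and Il1rn by edgeR were 7.6e-05 to 0.0089, and 1.2% of all tested genes were called higher and 2.13% lower. The median was -1.22, against 0.0071 over all genes. Mt1 was at 237 ± 68.5 CPM in CM and 71.4 ± 9.76 CPM in CM + Rux (SD, n = 3). In DMEM it was at 44.5 ± 8.33 CPM (SD, n = 2), below every CM + Rux sample. With IKK-16 added, 3 of the 6 fell: Mt2 (-2.67), the ferroxidase gene Cp (-1.33) and Mt1 (-0.88). Their adjusted p-values by edgeR were 9.1e-05 to 0.0044, the list median was -1.07, and 7.74% of all tested genes were called, 4.07% higher and 3.66% lower. Whether the list and the 5 genes differed in their change with ruxolitinib was not tested. The lists were written with results of these data known, so their counts are not independent evidence.

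**Figure D4:**
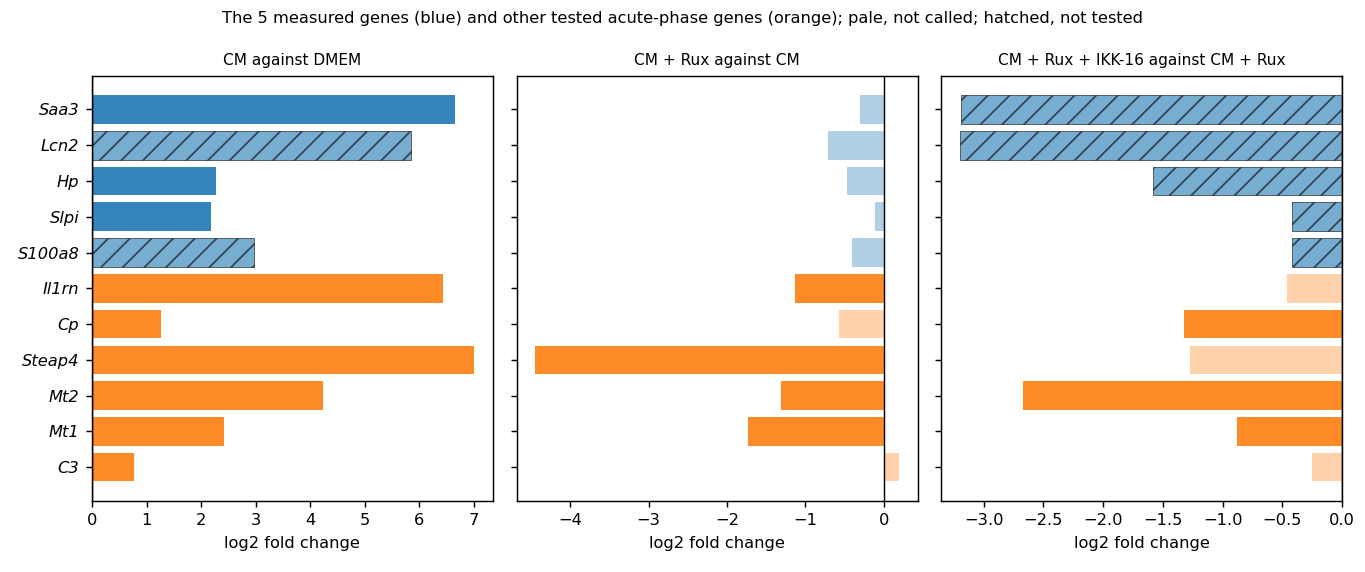
Log2 fold changes of the 5 tested genes (blue) and the 6 tested genes of the acute-phase list (orange) in CM against DMEM, CM + Rux against CM and CM + Rux + IKK-16 against CM + Rux; solid bars passed the rule for calls, pale bars did not, and hatched bars are values of the 5 genes given without a test. All 11 genes lie above 0 with CM, and 4 of the orange genes but none of the blue genes have solid bars with ruxolitinib. The bar of Steap4 in the first panel depends on near-zero counts in DMEM. Its solid bar with ruxolitinib is a description, as Steap4 passed the filter only through CM samples.

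Among S100 genes and other alarmins, 4 of 14 tested genes rose with CM and 1 fell, a share of 35.7% against 45% of all tested genes. Il1a, an alarmin cytokine, was at 0.376 ± 0.0112 CPM in DMEM (SD, n = 2) and 2195 ± 494 CPM in CM (SD, n = 3). The CM mean of Il33 was 7.66-fold above a floor of 3 fragments per DMEM sample, with CM samples spread from 0.203 to 1.34 CPM. Anxa1 fell (log2 fold change -0.63). With ruxolitinib in CM, 0 of the 14 were called by edgeR or DESeq2 and 4 had an unadjusted p-value under 0.05, and 3 fell with IKK-16, with Il1a (-1.94) and the heat shock gene Hspa1b (-1.37) furthest, where 3.66% of all tested genes were called lower. Of 22 granule and antimicrobial genes, 6 were tested and 3 rose with CM (20.9% of all tested genes), among them the metalloproteinases Mmp8 (1.49) and Mmp9 (1.31). With ruxolitinib in CM 0 of these 6 were called by edgeR or DESeq2 (1 at an unadjusted edgeR p-value under 0.05). With IKK-16 also 0 were called (2 at an unadjusted edgeR p-value under 0.05). Of all 12372 tested genes, 898 higher and 994 lower had such a p-value with ruxolitinib in CM, and 1664 and 1897 with IKK-16.

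Genes for receptors and partners of the encoded proteins mostly passed the filter, but some were close to it. The group means of Slc22a17 were 0.709 to 1.48 CPM and those of Ager 0.509 to 1.20 CPM, and Lrp2 was not tested. Of 14 receptor and partner genes, 13 were tested, 6 rose with CM and 2 fell, against 20.9% and 24.1% of all tested genes. Cd14 and Tlr2, which take part in sensing of bacterial products, rose by 2.68 and 2.57 on the log2 scale. Cd163, the receptor for haptoglobin bound to hemoglobin, fell (-1.64), as did P2rx7, a receptor for extracellular ATP (-0.88). The level of Cd163 was low, at 1.62 ± 0.951 CPM in DMEM (SD, n = 2) and 0.500 ± 0.0934 CPM in CM (SD, n = 3). Tlr4, a receptor for calprotectin, was at 238 ± 25.9 CPM in CM and 116 ± 10.9 CPM in CM + Rux (SD, n = 3; log2 fold change -1.04, adjusted p = 2.4e-04, edgeR). It rose with IKK-16 (0.68), while the formyl peptide receptors Fpr2, which also binds serum amyloid A, and Fpr1 fell (-1.13 and -1.06). Of all tested genes, 4.07% were called higher and 3.66% lower with IKK-16, and 2.13% lower with ruxolitinib.

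Of 22 genes upstream of the response, 21 were tested, and 16 rose with CM while 2 fell. The CM means of Il6 and Csf3 were 1782-fold and 306-fold above a floor of 3 fragments per DMEM sample. Il6st, the shared signalling receptor of the IL-6 family, fell (log2 fold change -1.10), as did Cebpa (-0.93). With ruxolitinib in CM, Lif, a cytokine of the IL-6 family, rose (2.41) and Il6ra fell (-1.31). The median log2 fold change with CM was 2.32 for these genes, 0.21 for the receptors, 0.60 for the granule genes and -0.0020 for the alarmins. With IKK-16, 6 fell, led by Il6 (-2.29) and Lif (-1.94). Over all 5 lists and 60 tested genes, 35 were higher and 5 lower with CM. Of all tested genes, 20.9% and 24.1% were. Ruxolitinib in CM gave 1 higher and 6 lower, against 1.2% and 2.13% of all tested genes, and IKK-16 gave 1 higher and 14 lower, against 4.07% and 3.66%. The 6 lower genes include Steap4, which passed the filter only through CM samples. With the replicate number as a block, the count for ruxolitinib in CM was 12 in place of 7. Over all tested genes, the block gave 305 higher and 440 lower in place of 149 and 263. In DMEM + Rux against DMEM, 0 of the 60 were called by edgeR or DESeq2, and 10 had an unadjusted p-value under 0.05 by edgeR. Of all 12372 tested genes, 181 higher and 462 lower had such a p-value.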

How the data were processed

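RNA was sequenced from 16 samples of BMDMs, and samples were grouped by the condition and number in their labels. The authors trimmed reads with Trimmomatic 0.33, aligned them to GRCm38 with HISAT2 2.1.0 and counted fragments per gene with featureCounts 1.6.2 in the reverse-stranded setting, leaving out fragments with several alignments or genes. The authors deposited raw counts, in whole numbers, of 55487 Ensembl 100 genes, with 18449388 to 46215853 counts per sample. Symbols came from GENCODE M21 for 55141 of the identifiers.

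A filter of more than 1 CPM in 2 or more samples left 12372 genes. Counts were scaled by RLE and tested with the two-sided quasi-likelihood test of edgeR 4.0.16 (limma 3.58.1, R 4.3.3) in 1 model of the 6 groups, with Benjamini-Hochberg adjustment over all genes. The limits on the adjusted p-value (0.05) and log2 fold change (0.5), the scaling and the filter follow the methods of the study, which name edgeR. Compared with total counts alone, the scaling shifted the median gene by 0.31 (log2) between CM and DMEM, by 0.30 between CM + Rux and DMEM + Rux, and by under 0.1 elsewhere. SE was the log2 fold change over the root of the F statistic. A fold against a group with at most 3 counts per sample was computed against 3 counts. Such floors and counting limits cover counting error only.

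Same-numbered samples deviated together: in the comparisons with 3 shared numbers that involve CM + Rux, every pair had a correlation over 0.1, and over all 35 pairs it ranged from 0.0024 to 0.61. The pairing is read from the labels' numbers and this check. Replicates differed by more than sampling noise (chi-square per degree of freedom 14.2 to 54.4), so none was a copy.

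Alternatives were TMM, no scaling, no filter, the replicate block, only the groups compared, DESeq2 1.42.0, no fold change limit and each sample left out. The tests were tried on simulated data. The genes, lists and rule for naming were chosen with earlier results of these data known. The rule names the 6 genes, up to 2 called genes of largest rise and 2 of largest fall per list and comparison, and the 3 nearest profiles per gene. Figures used Python 3.11.15 and matplotlib 3.10.9.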

Additional observations from a re-analysis of the deposited data

How the results depend on the processing

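Of 276 values and counts that answer a comparison under the alternatives, 268 kept their side, and of 919 log2 fold changes of single genes and other values, 891 did. Saa3, Hp and Slpi stayed called in CM against DMEM under every alternative run. With the replicate block, 1 gene (Lcn2) was called in CM + Rux against CM (log2 fold change -0.73), and the block changed no other call of the 5 genes. That call is not independent of the choice of Lcn2, which used its CM + Rux values. Leaving out 1 sample at a time left 3 to 5 genes past both limits in CM + Rux 2 h against CM and 2 to 5 in CM + Rux 2 h against CM + Rux, both lowest without replicate 2 of the 2 h group, and these counts hold genes that are given without a test. List genes called in CM + Rux against CM numbered 14 of 99 without the filter, which tests more genes. With the block they numbered 12 of 60, against 7 of 60. In DMEM + Rux against DMEM they numbered 5 without the filter and 1 with the block, and 0 to 3 with a sample left out (3 without DMEM replicate 2). Calls over all tested genes shifted too. In CM + Rux against CM, 149 were higher and 263 lower of 12372. With the block these were 305 and 440, and without the filter 269 and 416 of 24476. In DMEM + Rux against DMEM, 0 were higher and 120 lower of 12372. With the block these were 1 and 154, and without the filter 0 and 180 of 24476. The cause of these shifts was not tested. The median change of the 5 genes with IKK-16 was -1.58, and -1.87 to -1.29 with a sample left out.

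The sign turned only in changes that were not called. With the block, the changes in DMEM + Rux against DMEM were -0.063 for Hp and -0.064 for Slpi. With a sample left out, they ranged from -0.59 to 0.0014 for Saa3, from -1.35 to 1.82 for Lcn2, from -0.087 to 0.39 for Hp and from -0.28 to 0.41 for Slpi. In CM + Rux against CM, Saa3 ranged from -0.62 to 0.036. The ruxolitinib effect in CM minus that in DMEM ranged from -0.31 to 0.37 for Saa3, from -2.53 to 0.64 for Lcn2 and from -0.51 to 0.18 for Slpi. Depth limits S100a9, S100a8 and, without CM, Lcn2, each with few fragments per sample.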
